A study of Mus musculus with 7 samples.

Results

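The genes described here encode the BAF chromatin remodelling subunits that change between neural progenitors and neurons. They were chosen by name: 10 genes, of which Actl6a, Phf10, Ss18 and Smarcd1 were taken as the 4 progenitor subunit genes and Actl6b, Dpf1, Dpf3, Ss18l1 and Smarcd3 as the 5 neuronal ones, with Dpf2 in neither group. Every H3K18La peak carrying one of these gene symbols was used, which gave 75 of the 108253 merged peaks and 8 of the 10 genes. Phf10 and Ss18l1 carried no peak, and no peak of another symbol overlapped either gene or lay within 1000 bases of its start sites. Dpf3 alone held 53 of the 75 peaks (70.7%), and Actl6a and Smarcd3 held 6 each, Ss18 4, Actl6b and Dpf1 2 each, and Smarcd1 and Dpf2 1 each.

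H3K18La, the lactylation of lysine 18 on histone H3, was profiled by CUT&Tag in whole retinas of C57Bl/6J mice at postnatal day 4 (P4, 2 libraries), P10 (2 libraries) and P28 (3 libraries), all from cells dissociated with papain. The labels give no other allele or treatment. CUT&Tag cuts and tags chromatin where an antibody against the mark is bound, and comparing ages asks where the mark is gained or lost as the retina matures. The labels give batch 2 for P28 replicate 1 and batch 1 for the other libraries. The study's methods call the replicates biological, but no source says whether each came from other animals, so p-values measure only the spread between these libraries. Reads in peaks ran from 295383 to 358971 at P4, from 199970 to 660740 at P10 and from 1615969 to 8274373 at P28, and they were 16.3 to 17.6% of the effective library at P4, 36.1 to 52.1% at P10 and 42.4 to 57.1% at P28. At the median peak width, 3 reads corresponded to 7.15 RPKM (reads per kilobase of peak, scaled to library size) in P10 replicate 1 and to 0.24 RPKM in P28 replicate 2, so low values at P10 rest on few reads. The retinal label was checked with photoreceptor markers. Promoter peaks were present for 11 of 12 rod genes, and their summed level was 31.1 to 33.9 RPKM at P4, 228.6 to 233.6 at P10 and 192.4 to 267.0 at P28. All 11 were called higher at P28 than at P4. For 10 of 12 progenitor and cell cycle genes the sum was 12.1 to 18.3, 23.3 to 31.5 and 49.5 to 58.0 RPKM at the same ages. Müller glia genes (5 of 6) summed to 8.6 to 9.0 RPKM at P4 and 23.4 to 29.4 at P28. At those ages cone genes (5 of 6) summed to 4.0 to 6.9 and 22.4 to 34.1, bipolar genes (4 of 6) to 3.1 to 4.7 and 9.5 to 12.9, and amacrine genes (3 of 5) to 7.2 to 8.2 and 13.7 to 20.1. The amacrine sum rose through Slc6a9, with means of 1.32 RPKM at P4 and 14.14 at P28. Gad1 (2.45 and 1.36) and Gad2 (3.94 and 1.45) had lower means at P28. Ganglion cell genes (3 of 5) summed to 5.9 to 8.7 and 3.7 to 6.1, vascular genes (3 of 4) to 6.9 to 9.8 and 3.7 to 5.9, and 1 of 5 microglia and 1 of 4 pigment epithelium genes had a promoter peak. In the ganglion and vascular lists, 1 gene each had a positive change from P4 to P28, against the direction of the sum. In whole retina, fewer cells of a type and less of the mark per cell cannot be told apart, and the part of cell type make-up in the values given here was not tested.

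BAF complexes move nucleosomes with an ATPase and a set of interchangeable subunits. When neural progenitors leave the cell cycle, BAF53a (encoded by Actl6a) gives way to BAF53b (Actl6b), the double PHD finger proteins BAF45a (Phf10) and BAF45d (Dpf2) give way to BAF45b (Dpf1) and BAF45c (Dpf3), and SS18 gives way to its paralog CREST (Ss18l1). REST holds the microRNAs miR-9 and miR-124 silent outside neurons, and miR-9* (the 3p arm of miR-9) and miR-124 act on the Actl6a transcript. The BAF60 subunits Smarcd1 and Smarcd3 are a less settled pair, since BAF60c (Smarcd3) has also been described in retinal progenitors.

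The promoter sequences of the genes on which the results turn are given below as bases before the first annotated exon, from RefSeq's GRCm38.p6 promoter windows, 5′ to 3′ on the gene's own strand. Capitals mark any match on either strand to the 6 motifs searched, and 1 match can lie within another. GGGCGG is the GC box bound by Sp and Klf factors. GGGGCGGGG is a longer GC box that contains the shorter one. The E-box was searched as CACGTG. The homeodomain motif bound by Crx was searched as TAATCC. The left part of the REST element was searched as TTCAGCACC. Its right part was searched as GGACAGC. Actl6a and Actl6b are shown as the paralog pair, Phf10 as one of the members without a peak, and Dpf3 and Smarcd3 as neuronal members with a called promoter. The windows are chr3:32708296-32708506 (+), chr5:137553296-137553516 (+), chr17:14961274-14961510 (-), chr12:83487717-83487986 (-) and chr5:24602013-24602252 (-).
Actl6a: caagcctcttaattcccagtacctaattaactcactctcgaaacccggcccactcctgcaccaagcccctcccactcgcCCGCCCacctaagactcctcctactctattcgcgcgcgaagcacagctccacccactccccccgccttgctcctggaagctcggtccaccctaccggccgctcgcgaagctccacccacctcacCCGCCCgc
Actl6b: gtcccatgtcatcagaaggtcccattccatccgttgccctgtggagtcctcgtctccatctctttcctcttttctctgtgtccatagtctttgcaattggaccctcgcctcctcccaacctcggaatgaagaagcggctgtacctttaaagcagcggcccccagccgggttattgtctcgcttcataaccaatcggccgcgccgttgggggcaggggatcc
Phf10: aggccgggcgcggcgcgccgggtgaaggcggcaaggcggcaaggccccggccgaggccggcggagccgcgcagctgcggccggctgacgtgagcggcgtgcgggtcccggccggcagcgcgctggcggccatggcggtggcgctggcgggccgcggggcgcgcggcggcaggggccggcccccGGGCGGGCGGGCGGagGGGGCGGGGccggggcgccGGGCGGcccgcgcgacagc
Dpf3: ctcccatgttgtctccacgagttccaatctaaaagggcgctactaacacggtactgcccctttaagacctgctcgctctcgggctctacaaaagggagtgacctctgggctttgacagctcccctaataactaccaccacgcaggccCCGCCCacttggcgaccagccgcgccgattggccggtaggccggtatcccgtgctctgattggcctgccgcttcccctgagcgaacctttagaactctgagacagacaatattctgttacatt
Smarcd3: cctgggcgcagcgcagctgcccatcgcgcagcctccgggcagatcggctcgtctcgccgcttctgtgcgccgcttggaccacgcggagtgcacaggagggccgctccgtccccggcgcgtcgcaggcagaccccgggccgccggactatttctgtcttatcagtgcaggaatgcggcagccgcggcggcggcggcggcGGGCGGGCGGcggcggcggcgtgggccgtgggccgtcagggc

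Over the whole 300-base windows, which include the first exon bases, 9 members were in the promoter table and 8 of these 9 held GGGCGG, against 35.6% of all 32817 promoters. Phf10 held 5 matches, Dpf1 and Ss18l1 4 each, Actl6a 3, Actl6b and Smarcd3 2 each and Smarcd1 and Dpf3 1 each. CpG counts ran from 17 in Dpf3 to 62 in Phf10, against a median of 7 over all promoters. Of the 2 members without a peak, Phf10 had the highest CpG count of the 9, with 87.0% of its bases G or C, and Ss18l1 had 39 CpGs, as did Dpf1, which carried peaks. The longer GC box was in 4 of the 9 (11.4% of all promoters), those of Phf10, Smarcd1, Actl6b and Ss18l1. The right part of the REST element had 1 match, within the first exon bases of Actl6b, and 6.6% of all promoters held it. The E-box, the Crx motif and the left part of the REST element were in none of the 9, against 7.1%, 7.1% and 0.4% of all promoters.

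Between P4 and P28 the mark rose at many peaks of these genes and fell at none of them by the test. By limma on log2(RPKM + 1), with Benjamini-Hochberg adjustment over all 108253 peaks and a threshold of 0.01, 32 of the 75 peaks were higher at P28 than at P4, where 18.9% of all peaks were, and 0 were lower, where 4.21% of all peaks were. An unadjusted p under 0.05 was reached by 50 of the 75 in either direction, against 51.8% of all peaks, and voom on the recovered reads called 43 higher and 0 lower, against 30.2% of all peaks higher. The median change was 1.60 over the 75 peaks and 0.68 over all peaks, with 0.80 and -0.29 after rescaling to the reads in peaks of each library and 2.54 and 1.11 with a pseudocount of 0.1. Every P28 library lay above both P4 libraries at 60 of the 75 peaks, compared with 50.6% of all peaks. Much of this came from a single gene: without Dpf3, 7 of 22 peaks were called higher and the median change was 1.38. The count of 32 fell to 15 without P4 replicate 1, 12 without P4 replicate 2, 18 without P28 replicate 2 and 18 without P28 replicate 3, and it was 23 without P28 replicate 1, the batch 2 library. After the same rescaling, 14 were higher and 0 lower. Peaks found only at P28 entered the merged set through their P28 signal, among these genes and among all peaks. The counts of higher peaks are therefore a description.

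From P4 to P10, 26 of the 75 peaks were higher at P10, where 11.4% of all peaks were, and 0 were lower, where 7.34% were. Of those 26, 24 were Dpf3 peaks, and without Dpf3 the count was 2 of 22 with a median change of 0.00. Those 2 of 22 are a share near that of all peaks, 7 of the 22 had an unadjusted p under 0.05, and 12 of the 22 held 3 reads or fewer in each P10 library. At an unadjusted p under 0.05 the comparison of P10 with P4 held 49 of the 75 peaks, against 44% of all peaks. The count of 26 ranged from 7 to 39 when single libraries were left out, with 8 without P4 replicate 1, 7 without P4 replicate 2, 16 without P28 replicate 1, 10 without P28 replicate 2 and 15 without P28 replicate 3. After rescaling to reads in peaks, 7 were higher and 2 lower. Between P10 and P28, limma called 0 of the 75 peaks, and 0.00185% of all peaks, but 16 of the 75 (12 higher, 4 lower at P28) without P10 replicate 2, 2 without P10 replicate 1 and 4 with median centring. At an unadjusted p under 0.05 that comparison held 27 of the 75, against 32.5% of all peaks, and voom on the recovered reads called 5 higher and 3 lower, against 8.26% of all peaks in either direction.

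**Figure D1:**
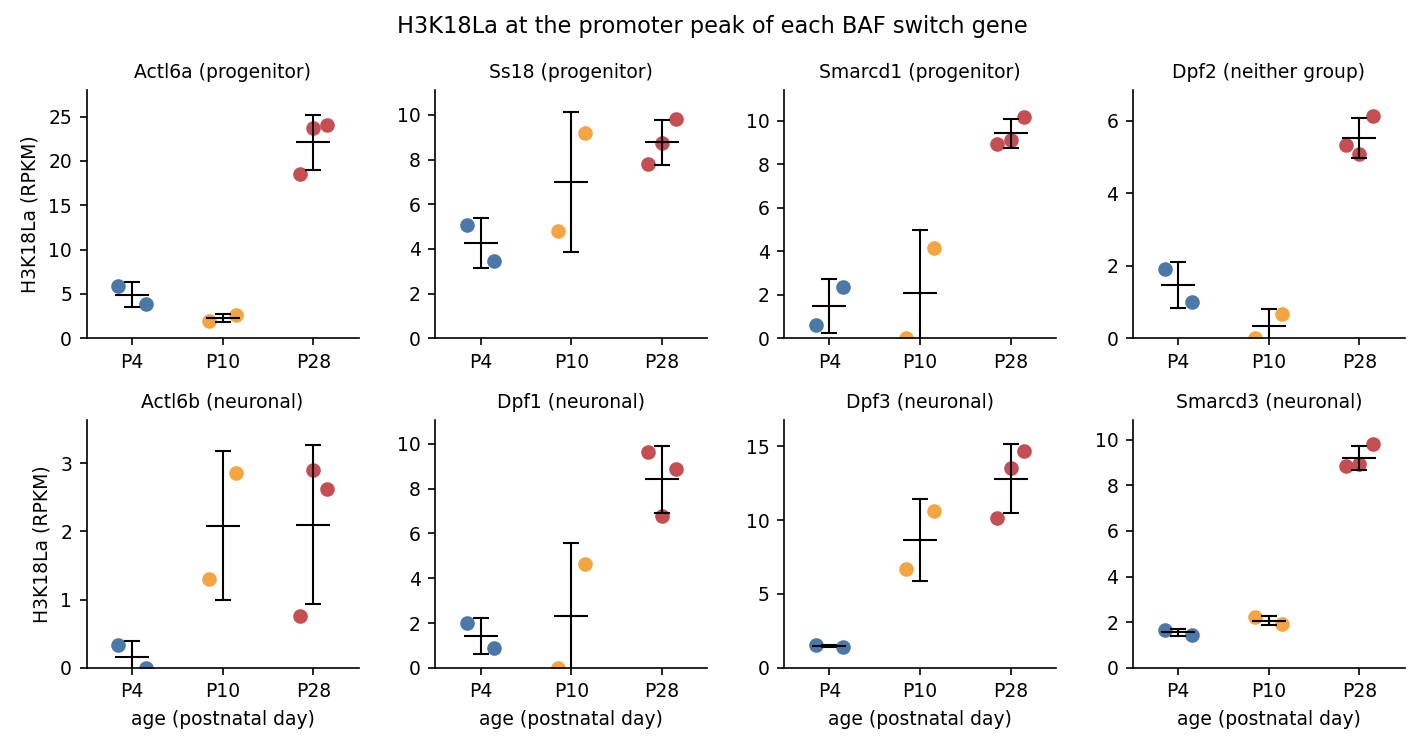
H3K18La in RPKM at the promoter peak nearest the start site of each gene, by age. Coloured points are libraries (2 at P4, 2 at P10, 3 at P28), and black bars are the mean ± SD, with each vertical axis starting at 0 and scaled to its own gene. In all 8 genes the P28 points lie above the P4 points, and in Dpf3 and Actl6b both P10 points lie well above the P4 points.

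The actin-related pair showed the progenitor gene carrying the stronger mark at P4 and again at P28. Actl6a encodes BAF53a, which proliferating progenitors need. Its promoter peak (chr3:32708245-32709163, over the annotated start site and first exon) held 5.93 and 3.90 RPKM at P4, 1.96 and 2.57 at P10, and 18.56, 23.74 and 24.05 at P28. All 3 P28 libraries stood above the other 4, and both P10 libraries lay below both P4 libraries. The rise from P4 to P28 was 1.98 ± 0.30 (SE) on the log2(RPKM + 1) scale (limma, adjusted p = 0.000986). In pooled reads, 18 at P4 and 548 at P28, the rate was 4.56 times higher at P28 (exact 95% interval 2.86 to 7.76, counting error only). The change from P4 to P10 was -0.84 ± 0.33 (adjusted p = 0.0762), on 1 and 3 reads in the P10 libraries. In pooled reads the P10 rate was 0.473 times that of P4 with an exact 95% interval of 0.116 to 1.44, so a fall at P10 was not detectable at this depth. Among the nearest promoter peaks of 9956 protein-coding genes, Actl6a stood at percentile 96.2 at P4, 39.4 at P10 and 97.2 at P28 by mean RPKM. Its P28 call ended when values were rescaled to the reads in peaks of each library (change 0.59, adjusted p = 0.0984) and without P4 replicate 2 (change 1.73, adjusted p = 0.0135).

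The mark at Actl6a spread over several peaks, and 5 of its 6 were called higher at P28 than at P4 by limma, 4 of them also by voom, where 18.9% and 30.2% of all peaks were. The merged set took peaks found at any age, so a peak found only at P28 was likely to be higher there. Which of these peaks entered that way was not tested, and the counts are a description. Of the 6, 4 are annotated as distal intergenic and lie upstream of the gene's start sites. A second promoter peak (chr3:32705523-32706106), 192 bases before the start of another transcript, held 1.56 and 0.00 RPKM at P4, 0.00 in both P10 libraries, and 10.33, 9.89 and 11.24 at P28 (change 2.84 ± 0.47, limma adjusted p = 0.00148). Farther upstream, the peak at chr3:32699253-32700697 held 0.63 and 0.00 RPKM at P4, 3.75 and 3.27 at P10, and 11.98, 11.95 and 11.35 at P28. This was the only Actl6a peak called from P4 to P10 (change 1.82 ± 0.39, limma adjusted p = 0.00634), and its change to P28 was 3.32 ± 0.35 (adjusted p = 0.000212). A pair of upstream peaks had no read in either P4 library. At chr3:32698380-32698853 the P28 libraries held 4.43, 9.85 and 10.57 RPKM (limma adjusted p = 0.00193), and counting error allowed a ratio of P28 to P4 in pooled reads as low as 4.52 (exact 95% interval). At chr3:32683994-32684887 they held 1.47, 0.76 and 1.35 RPKM (limma adjusted p = 0.00304). There the same lower limit was 0.861, and voom did not call this peak. The sixth peak, at chr3:32676341-32677267, held 0.57 to 2.79 RPKM at P28 and was not called (change 0.36, adjusted p = 0.512).

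Actl6b encodes BAF53b, the neuronal counterpart needed for dendrite growth. Its promoter peak (chr5:137553156-137554534) held 0.33 and 0.00 RPKM at P4, 1.31 and 2.86 at P10, and 0.76, 2.90 and 2.63 at P28. This was the lowest mean of the 8 promoters at P4, and both P10 and P28 libraries lay above P4 while overlapping each other. The read counts were 1 at P4, 6 at P10 and 90 at P28, which gives a rate ratio of P28 to P4 of 13.5 with an exact 95% interval of 2.36 to 539. Neither the change to P28 (1.34 ± 0.50, limma adjusted p = 0.0536) nor that to P10 (1.37 ± 0.55, adjusted p = 0.0785) passed the threshold. At P28 the Actl6b promoter was at percentile 12 of the 9956 protein-coding promoters, compared with 2.8 at P4 and 36.1 at P10. A second, exonic peak (chr5:137555982-137556367) held 0.00 and 1.55 RPKM at P4, 4.68 and 2.04 at P10, and 0.00, 0.64 and 0.00 at P28. Both P10 libraries lay above every P28 library there, on 1 read each. Limma called none of its changes, and voom called it lower at P28 than at P10.

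The difference between the paralogs followed no single direction with age. Actl6b minus Actl6a, in log2(RPKM + 1) at the promoter, was -2.38 and -2.29 at P4, -0.36 and 0.11 at P10, and -3.47, -2.67 and -2.79 at P28. The P10 libraries therefore stood apart from both other ages, with the paralogs near the same level. These P10 values rest on only 1 and 3 reads for Actl6a and 1 and 5 for Actl6b. Neither gene's own change from P4 to P10 was called by limma. From P4 to P10 the mean difference moved by 2.21, and it stayed between 1.98 and 4.36 under the other pseudocount and scalings and without each library. From P4 to P28 it moved by -0.64, but by 1.04 with a pseudocount of 0.1 and by 0.30 after rescaling to reads in peaks, so its direction between P4 and P28 depends on the scale. Over the 7 libraries, the protein-coding promoters most like Actl6a by Pearson correlation of log2(RPKM + 1) were those of Ogfrl1 (r = 0.992), Fam241b (0.983) and Prep (0.982) out of 6499 promoters compared. These correlations are descriptions over libraries of unequal depth.

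**Figure D2:**
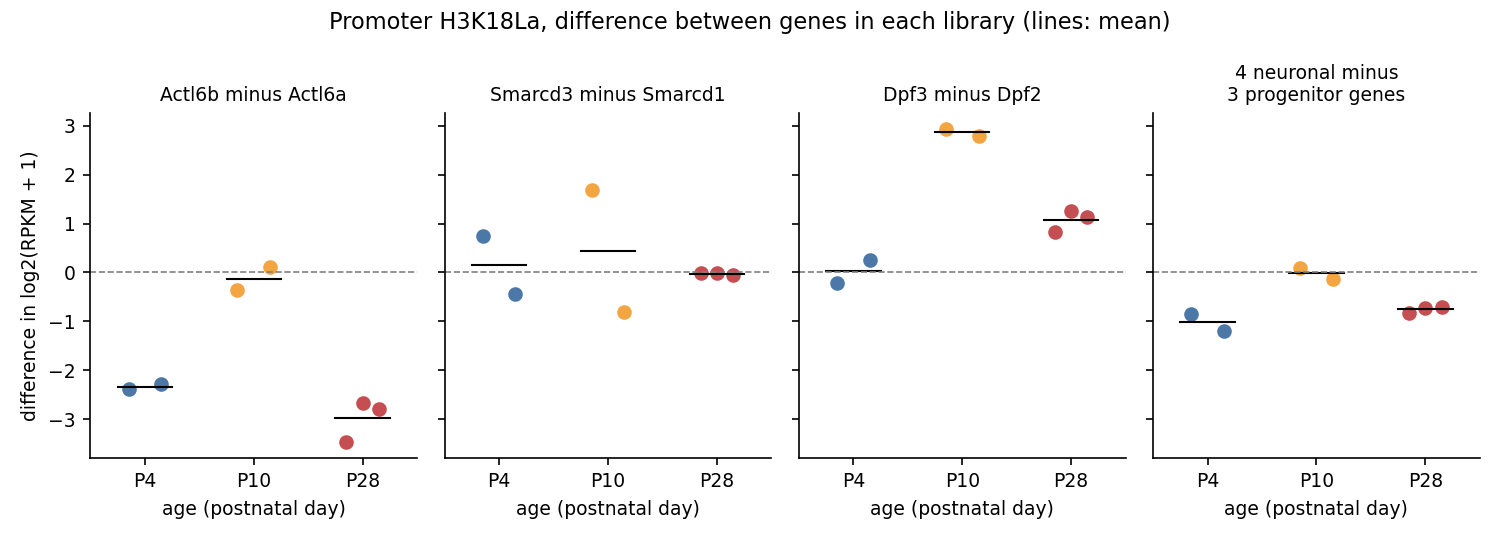
Difference in promoter H3K18La between genes of a pair, and between the mean of 4 neuronal and 3 progenitor genes, in log2(RPKM + 1) for each library by age, with lines at the mean. Actl6b minus Actl6a lies near 0 at P10 and below -2 at the other ages, Dpf3 minus Dpf2 peaks at P10, and Smarcd3 minus Smarcd1 lies at 0 in the P28 libraries. The P10 points rest on few reads, with 1 and 3 for Actl6a, 1 and 5 for Actl6b, and 0 and 1 for Dpf2.

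Among the BAF45 genes, which encode readers of modified histone tails, Dpf3 stood above the others at P10. Dpf3 minus Dpf1 was -0.24 and 0.36 in log2(RPKM + 1) at P4, 2.94 and 1.05 at P10, and 0.07, 0.91 and 0.67 at P28, so that P4 and P28 overlapped. Phf10 (BAF45a), the progenitor subunit, carried no merged peak. The peak nearest to any of its annotated start sites (chr17:14942914-14943874) lay past the 3′ end of the gene (chr17:14945009-14961273). It was 2954 bases from a start site inside the gene, and farther from the promoter shown above. Dpf2 (BAF45d), which is widely expressed, had 1 peak, over its promoter (chr19:5912290-5913473), where another gene model, Gm42067, also starts. It held 1.92 and 1.01 RPKM at P4, 0.00 and 0.67 at P10, and 5.32, 5.09 and 6.13 at P28. The P28 libraries lay above all others, but the change from P4 (1.42 ± 0.44, limma adjusted p = 0.026) did not pass 0.01. Dpf1 (BAF45b) held 2.00 and 0.87 RPKM at P4, 0.00 and 4.62 at P10, and 9.62, 6.76 and 8.86 at P28 in its promoter peak (chr7:29303596-29304277). That change was of like size to Actl6a's but noisier (1.98 ± 0.64, limma adjusted p = 0.0314). A second Dpf1 promoter peak, over an internal start site (chr7:29315029-29315790), was at 0.60 and 3.13 RPKM at P4 and 1.38 to 2.50 at P28 (change 0.26, adjusted p = 0.753).

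Dpf3 encodes BAF45c, known for its reading of acetylated and methylated histones and for its role in muscle and neurons. Its promoter peak (chr12:83485835-83488801, over the first start site) held 1.53 and 1.41 RPKM at P4, 6.69 and 10.63 at P10, and 10.17, 13.55 and 14.67 at P28. By limma it was the 1 member promoter of 8 called higher at P10, while voom also called Actl6b. The change was 1.94 ± 0.35 from P4 to P10 (limma adjusted p = 0.00336) and 2.47 ± 0.32 from P4 to P28 (adjusted p = 0.000467). In pooled reads (17, 51 and 1021) the rate was 6.38 times that of P4 at P10 (exact 95% interval 3.62 to 11.8) and 9.0 times at P28 (5.59 to 15.5). The P28 call held in each of 14 alternatives, with changes from 1.32 to 3.06. The P10 call did not hold after rescaling to reads in peaks (0.97, adjusted p = 0.0209) or without P4 replicate 1 (1.97, adjusted p = 0.0206), P4 replicate 2 (1.90, adjusted p = 0.0235) or P28 replicate 2 (1.94, adjusted p = 0.012). Its change from P4 to P10 was at percentile 92.8 of the 9956 protein-coding promoters, and its change from P4 to P28 at percentile 91.6.

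The 53 Dpf3 peaks covered 67788 bases along a gene of 273972 bases on the minus strand of chromosome 12. Only 96 of 25400 genes with a peak, Dpf3 included, had as many, and the median gene had 2. Of the 53, 42 were intronic, 25 were higher at P28 than at P4, 24 were higher at P10 than at P4, and 0 were lower in either comparison, where 18.9% and 11.4% of all peaks were higher. The annotation places start sites at bases 83487716, 83439920, 83350895 and 83294428, in the order of transcription, and these were used to divide the gene. Averaged over peaks, the mark toward its 5′ end was higher by P10 and as high or higher at P28, whereas toward its 3′ end it was highest at P10. Single peaks departed from this, and limma called none of them between P10 and P28.

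Between the first and second start sites the mean over 10 peaks was 1.18 and 1.88 RPKM at P4, 9.33 and 12.66 at P10, and 13.68, 16.75 and 18.81 at P28. There 8 peaks were higher at P28 than at P4 (those starting at 83439271, 83444396, 83446710, 83452380, 83460091, 83470959, 83484743 and 83485835) and 6 of them at P10 as well. A pair of neighbouring intron peaks before the second start site carried the highest P28 values of the gene. The peak at chr12:83444396-83446164 held 2.05 and 3.37 RPKM at P4, 26.53 and 37.88 at P10, and 32.92, 37.49 and 38.47 at P28. Its neighbour at chr12:83446710-83447965 held 1.45 and 1.90, then 18.69 and 22.60, then 29.87, 35.72 and 42.35 RPKM. Changes from P4 to P28 were 3.35 ± 0.28 (limma adjusted p = 0.000115) and 3.78 ± 0.27 (adjusted p = 0.000113), and from P4 to P10 they were 3.16 ± 0.30 (adjusted p = 0.000416) and 3.02 ± 0.30 (adjusted p = 0.000427). The peak starting at 83439271, over the second start site, was called at P28 (2.11 ± 0.42, limma adjusted p = 0.00364) and not at P10 (1.21 ± 0.46, adjusted p = 0.0681). Upstream of the first start site, the peak at chr12:83495112-83495990 was higher at P10 (1.84 ± 0.39, limma adjusted p = 0.00593) and at P28 (2.18 ± 0.35, adjusted p = 0.00128) than at P4.

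Between the second start site and the third, the mean over 18 peaks was 1.20 and 1.19 RPKM at P4, 5.43 and 9.05 at P10, and 7.22, 9.41 and 10.67 at P28. Here 13 peaks were higher at P28 than at P4 (starting at 83369766, 83374722, 83376820, 83378848, 83383020, 83387906, 83404382, 83408307, 83411671, 83423504, 83431424, 83432829 and 83434303), 8 of which were also called at P10. The largest of these changes was 3.49 ± 0.36 at chr12:83431424-83432099 (limma adjusted p = 0.00019), where values were 0.00 and 0.88 RPKM at P4 and 11.64 to 17.63 at P28.

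Past the third start site the order of the later ages turned round. Between the third start site and the last the mean over 11 peaks was 1.88 and 3.00 RPKM at P4, 11.80 and 16.66 at P10, and 5.57, 7.43 and 7.83 at P28. Of these 11, 7 were higher at P10 than at P4, and 3 were higher at P28 (starting at 83294097, 83298410 and 83337462). The tallest was at chr12:83301749-83303564, with 6.51 and 7.56 RPKM at P4, 46.72 and 36.03 at P10, and 10.69, 12.86 and 14.27 at P28. Both P10 libraries lay far above every other library there. Its change from P4 was 2.39 ± 0.29 at P10 (limma adjusted p = 0.000757) and 0.75 ± 0.26 at P28 (adjusted p = 0.0425), and its change from P10 to P28 had an adjusted p of 0.0113. The next peak, at chr12:83298410-83299669, followed the same course, with 2.52 and 5.21 RPKM at P4, 27.22 and 36.29 at P10, and 9.16, 13.56 and 18.09 at P28. The others called only at P10 started at 83308797, 83328475 and 83335060. Past the last start site, 11 peaks averaged 2.52 and 2.20 RPKM at P4, 5.31 and 6.98 at P10, and 2.63, 3.67 and 3.91 at P28, with 2 called by limma at P10 (starting at 83284602 and 83285260) and 0 at P28. Voom also called that starting at 83283726 at P10, and it called those starting at 83283726 and 83285260 at P28.

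Counted over peaks, the P10 mean exceeded the P28 mean at 21 of the 24 Dpf3 peaks past the third start site (2 of which lie beyond the last exon) and at 7 of the 29 peaks before it, upstream one included. Over all peaks of the table the share was 36.3%, and over intron peaks 37.0%. Both P10 libraries lay above every P28 library at 15 of the 53 Dpf3 peaks, and at 14.9% of all peaks. The count of 21 of 24 was 16 without P10 replicate 2 and between 19 and 22 under the other scalings and left-out libraries. The count of 7 of 29 was 4 without P10 replicate 2, 11 without P10 replicate 1 and 11 with median centring. Neighbouring peaks of a gene are not independent, and the division at the third start site was not planned before the values were seen. The counts are therefore given as a description. Single Dpf3 peaks were not called between P10 and P28 by limma, while voom on the recovered reads called those starting at 83298410 and 83301749 lower at P28 and that starting at 83454137 higher.

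**Figure D3:**
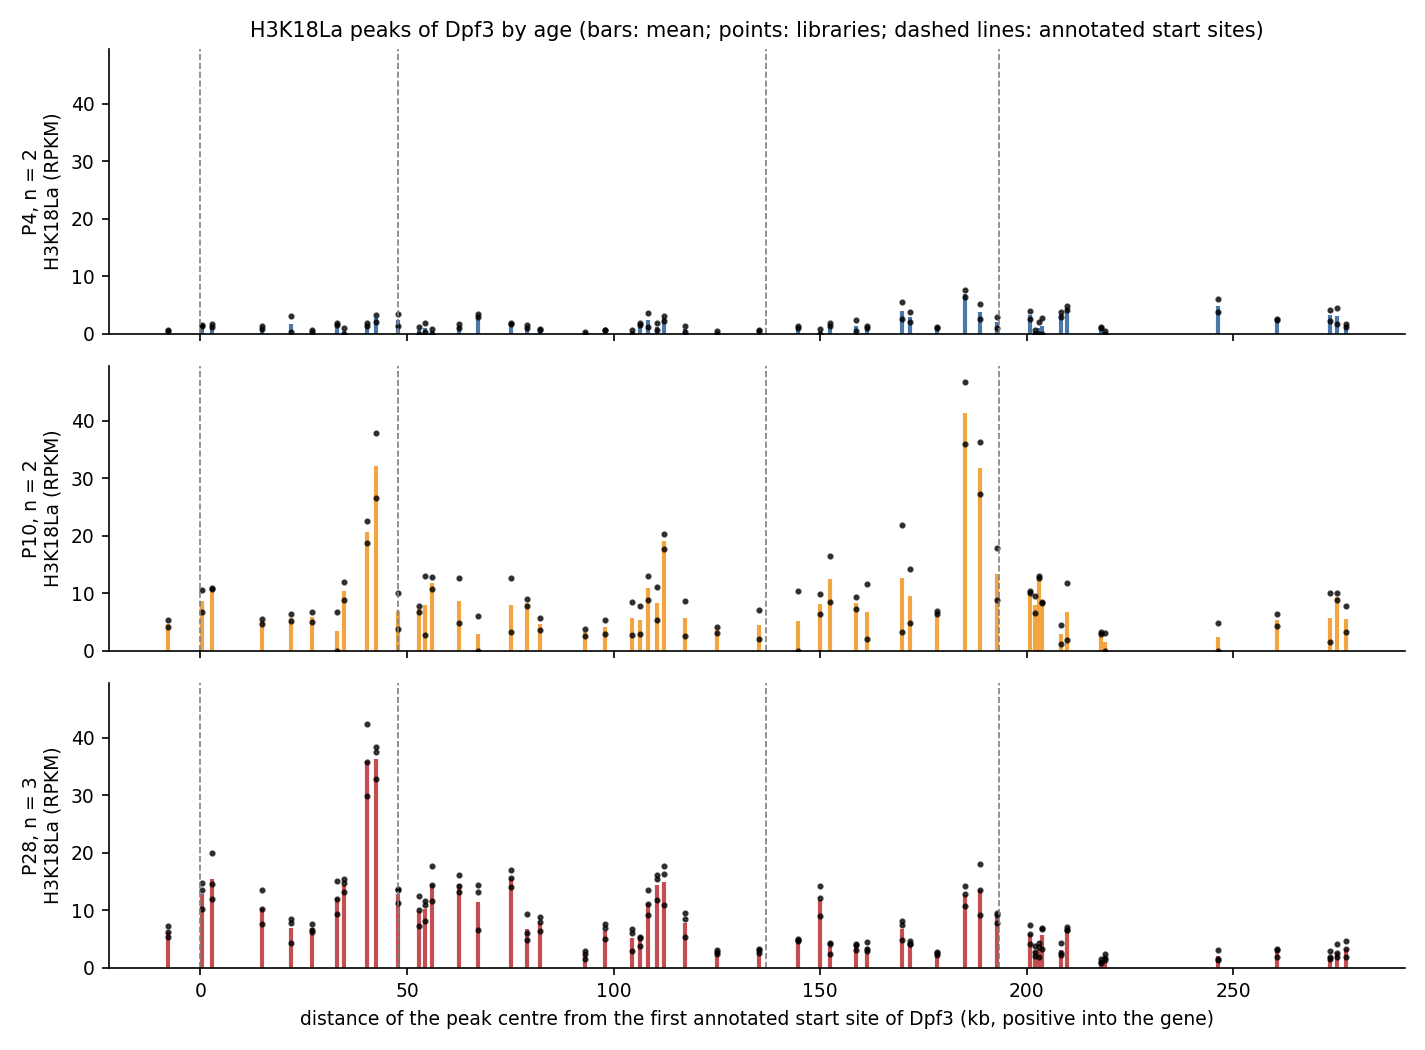
H3K18La in RPKM at the 53 peaks of Dpf3 against the distance of each peak's centre from the first annotated start site, in kilobases into the gene, at P4, P10 and P28. Coloured bars are means and black points libraries, and dashed lines mark the 4 start sites. The tall pair before the second start site is present at P10 and P28, and the tall pair just before the last start site stands out at P10 only.

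The central 300 bases of the Dpf3 peaks with the highest mean at P28 and at P10 are given below, from the 5′ and 3′ parts of the gene respectively. Levels were measured over whole peaks and not within these windows. They are intronic, from GRCm38.p6, written on the gene's minus strand, at chr12:83445131-83445430 and chr12:83302507-83302806, with the same motifs in capitals.
Dpf3 peak tallest at P28: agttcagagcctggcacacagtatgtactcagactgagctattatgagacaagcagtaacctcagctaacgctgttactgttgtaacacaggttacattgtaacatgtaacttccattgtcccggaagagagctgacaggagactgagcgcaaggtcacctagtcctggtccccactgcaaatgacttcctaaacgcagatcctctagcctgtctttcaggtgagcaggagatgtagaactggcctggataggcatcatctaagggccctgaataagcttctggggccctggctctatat
Dpf3 peak tallest at P10: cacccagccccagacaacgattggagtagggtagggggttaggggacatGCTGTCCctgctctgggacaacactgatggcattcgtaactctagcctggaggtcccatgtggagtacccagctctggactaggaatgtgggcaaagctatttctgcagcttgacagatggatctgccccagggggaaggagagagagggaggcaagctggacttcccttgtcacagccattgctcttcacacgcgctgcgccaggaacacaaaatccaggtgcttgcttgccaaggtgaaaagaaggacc

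None of the 6 motifs is in the first, and the second holds 1 match to GGACAGC. Their G and C content was 49.0% and 56.0%. Over the central 300 bases of all 53 Dpf3 peaks, the Crx motif was in 8 (15.1%), the GC box in 4 (7.5%), the E-box in 5 (9.4%) and the right part of the REST element in 4 (7.5%). Over 44210 intron peaks the shares were 12.9%, 5.1%, 4.6% and 7.8%. Each of these motifs was thus absent from most Dpf3 peaks.

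The SS18 pair could be followed on the progenitor side only, since Ss18l1, which encodes the calcium-responsive coactivator CREST, carried no merged peak. Ss18 held 5.06 and 3.48 RPKM at P4, 4.79 and 9.20 at P10, and 7.79, 8.74 and 9.80 at P28 in its promoter peak (chr18:14681731-14683615). The P28 libraries lay above the P4 libraries, and P10 overlapped both. With 0.90 ± 0.34 its change from P4 to P28 was the smallest of the 8 promoters (limma adjusted p = 0.0571), at percentile 30.3 of the protein-coding promoters, and it turned to -0.44 (adjusted p = 0.224) after rescaling to reads in peaks. The other 3 Ss18 peaks lay inside the gene with 0.61 to 4.74 RPKM at P28, and limma called none, while voom called that starting at 14653910 higher at P28 than at P4.

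The BAF60 pair reached like levels at P28. BAF60 subunits link the complex to transcription factors. Smarcd1 (BAF60a) held 0.60 and 2.35 RPKM at P4, 0.00 and 4.14 at P10, and 8.95, 9.11 and 10.20 at P28 in its single peak, over the promoter (chr15:99701774-99702535). Smarcd3 (BAF60c) held 1.67 and 1.46 RPKM at P4, 2.21 and 1.93 at P10, and 8.83, 8.95 and 9.82 at P28 in the peak over its inner promoter (chr5:24601965-24603599). At P28 the paralogs were thus level, differing by -0.05 to -0.02 in log2(RPKM + 1). The change from P4 to P28 was 2.17 ± 0.63 for Smarcd1 (limma adjusted p = 0.0207) and 1.99 ± 0.33 for Smarcd3 (adjusted p = 0.00135), and the difference between the genes moved by -0.18, which was 0.41 without P4 replicate 1 and -0.77 without P4 replicate 2. For Smarcd3, the rate in pooled reads (10 and 386) was 5.78 times higher at P28 (exact 95% interval 3.11 to 12.2). The Smarcd3 call ended after rescaling to reads in peaks (0.84, adjusted p = 0.0606) and narrowly without P4 replicate 1 (adjusted p = 0.01), P4 replicate 2 (0.0109), P28 replicate 2 (0.0124) or P28 replicate 3 (0.0112).

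Within Smarcd3, the intron peak next to the inner promoter (chr5:24603926-24605296) was higher still, at 3.98 and 1.74 RPKM at P4, 9.22 and 9.20 at P10, and 17.99, 16.18 and 18.90 at P28. It was called at P10 by limma (1.47 ± 0.35, limma adjusted p = 0.00977) but not by voom, and by both at P28 (2.34 ± 0.32, limma adjusted p = 0.000561). The promoter of the longer transcript (chr5:24623359-24625217) held 0.49 and 2.25 RPKM at P4, 0.00 and 2.12 at P10, and 3.1, 2.61 and 2.51 at P28, a change of 0.76 that was not called (adjusted p = 0.303). The start sites of this gene thus differed in their P28 level, 8.83 to 9.82 RPKM at the inner one and 2.51 to 3.1 at the outer one. The other 3 intron peaks held 1.46 to 6.53 RPKM at P28, and limma called none, while voom called that starting at 24614081 higher at P10 and at P28 than at P4.

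Averaged over groups, both neuronal and progenitor promoters had higher levels in every P28 library than in either P4 library. With 1 promoter peak per gene, the mean of the 3 progenitor genes was 2.02 and 2.07 log2(RPKM + 1) at P4, 1.37 and 2.52 at P10, and 3.58, 3.75 and 3.86 at P28. The mean of the 4 neuronal genes was 1.19 and 0.87, then 1.46 and 2.38, then 2.75, 3.02 and 3.14. The progenitor genes remained the higher group at P4 and P28. Neuronal minus progenitor was -0.84 and -1.20 at P4, 0.09 and -0.13 at P10, and -0.83, -0.73 and -0.71 at P28, a move of 0.26 from P4 to P28. That move was of the size of the spread between libraries at P4 (SD 0.26), it was 0.08 without P4 replicate 2 and 0.44 without P4 replicate 1, it was 0.79 with a pseudocount of 0.1, 0.56 after rescaling to reads in peaks and 0.49 without Smarcd1 and Smarcd3, and it turned to -0.13 without Ss18 and to -0.49 when each gene was averaged over all its peaks. All 8 promoters had a positive change from P4 to P28, and 3 of them (Actl6a, Dpf3 and Smarcd3) were called higher, where 33.8% of 9956 protein-coding promoters were. For Dpf1, Dpf3 and Smarcd3, all neuronal, more than 1 peak lies over a start site, and the one with the highest mean RPKM was taken. The others were not called for Smarcd3 (0.76, limma adjusted p = 0.303) and Dpf1 (0.26, limma adjusted p = 0.753), but were for Dpf3. The group difference was not computed with these other peaks. Every P28 library lay above both P4 libraries at all 8, and at 79.9% of those promoters. Voom on the recovered reads called 7 of the 8 higher, against 53.5% of the promoters, and so added Smarcd1 (adjusted p = 0.00011), Actl6b (0.000645), Dpf1 (0.00154) and Dpf2 (0.00636). From P4 to P10 limma called Dpf3 alone of the 8, and 12% of those promoters, and voom called Dpf3 and Actl6b. Over all protein-coding promoters the mean rose from 1.36 at P4 to 2.65 at P28, and the progenitor mean minus this mean was 0.68 at P4 and 1.08 at P28, and the neuronal mean minus it was -0.33 and 0.33.

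Many BAF subunit genes that do not take part in the switch were also higher at P28, though not after rescaling to reads in peaks. Of 21 such genes, 17 had a promoter peak, 9 were higher at P28 and 0 were lower (14 had an unadjusted p under 0.05, and voom called 12 higher and 0 lower). Of all protein-coding promoters, 67% had an unadjusted p under 0.05, and 33.8% were higher at P28 by limma and 53.5% by voom. The 9 were the ATPase genes Smarca2 (BRM) and Smarca4 (BRG1), the core genes Smarcb1 and Smarcc2, the ARID subunit genes Arid1a, Arid1b and Arid2, and Bcl7a and Bcl7c. Arid1a changed most, from 0.78 and 1.02 RPKM at P4 to 8.98, 8.63 and 12.12 at P28 (2.51 ± 0.43, limma adjusted p = 0.00165). Smarca2 held 3.06 and 2.56 RPKM at P4, 12.15 and 10.61 at P10, and 13.33, 15.72 and 21.46 at P28, and with Arid1b and Arid2 it was called at P10 as well. Smarca4 rose by 2.31 ± 0.40 to P28 (limma adjusted p = 0.00168) and by 1.23 ± 0.43 to P10 (adjusted p = 0.0507). Brd7 was the 1 of the 17 with a higher mean at P10 (4.26 and 8.07 RPKM) than at P28 (2.69, 3.73 and 4.76). From P4 to P28 the median of the changes was 1.77 over these 17 promoters, 1.98 over the 8 member promoters and 1.36 over the 9956 protein-coding promoters. Counted together with the regulators of the switch, 12 of 24 promoters were higher at P28, against the same 33.8%, but 3 were without P4 replicate 2 and 5 without P4 replicate 1 or any one P28 library, and after rescaling to reads in peaks 0 were higher and 1 was lower.

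Among the 7 regulators of the switch with a promoter peak, 3, all microRNA host genes, had both P10 libraries above every P28 library. So had 5.84% of all protein-coding promoters and 14.9% of all peaks. C130071C03Rik, the host of miR-9-2, went the other way, with 5.59 and 3.66 RPKM at P10 and 7.17, 7.86 and 7.93 at P28. Of 12 genes, 7 had a promoter peak, of which 3 were higher at P28 and 4 at P10, with 0 lower, and the shares of all protein-coding promoters were 33.8% and 12%. The peak 152 bases before Mir124a-3 (chr2:180892682-180893888) held 1.51 and 1.48 RPKM at P4, 8.97 and 8.49 at P10, and 10.22, 10.85 and 10.30 at P28 (2.20 ± 0.29 to P28, limma adjusted p = 0.00045). Mir124a-1hg, a host transcript of miR-124, held 8.33 and 5.73 RPKM at P4, 26.78 and 22.70 at P10, and 16.48, 15.55 and 18.08 at P28 (1.16 ± 0.26, limma adjusted p = 0.00698). Rcor1, which encodes the REST partner CoREST, held 1.10 and 1.44 RPKM at P4, 3.49 and 6.09 at P10, and 9.12, 8.04 and 9.01 at P28 (2.10 ± 0.34, limma adjusted p = 0.00131). Rest itself ranged from 0.00 to 5.41 RPKM and was not called (0.85 ± 0.64, adjusted p = 0.298).

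The other host transcripts called at P10 belong to the same list of 12 regulators, but were picked for printing after their values were seen. Mir9-3hg (chr7:79525597-79528574) held 3.51 and 4.01 RPKM at P4, 12.73 and 14.82 at P10, and 3.79, 3.94 and 4.76 at P28. It was thus back at its P4 level by P28, with changes of 1.63 ± 0.33 to P10 (limma adjusted p = 0.00483) and 0.11 ± 0.30 to P28 (adjusted p = 0.772). Mir124-2hg held 6.53 and 9.24 RPKM at P4, 26.96 and 52.32 at P10, and 17.27, 19.00 and 19.87 at P28 (2.14 ± 0.35 to P10, limma adjusted p = 0.00207). The mature arms of miR-9 are shown because the 3p arm is the one known to act on Actl6a, with the seed (bases 2 to 8) in capitals, from RefSeq. Mir9-1, Mir9-2 and Mir9-3 encode the same arms.
miR-9-5p: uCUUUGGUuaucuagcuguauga
miR-9-3p: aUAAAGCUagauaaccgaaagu

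**Figure D4:**
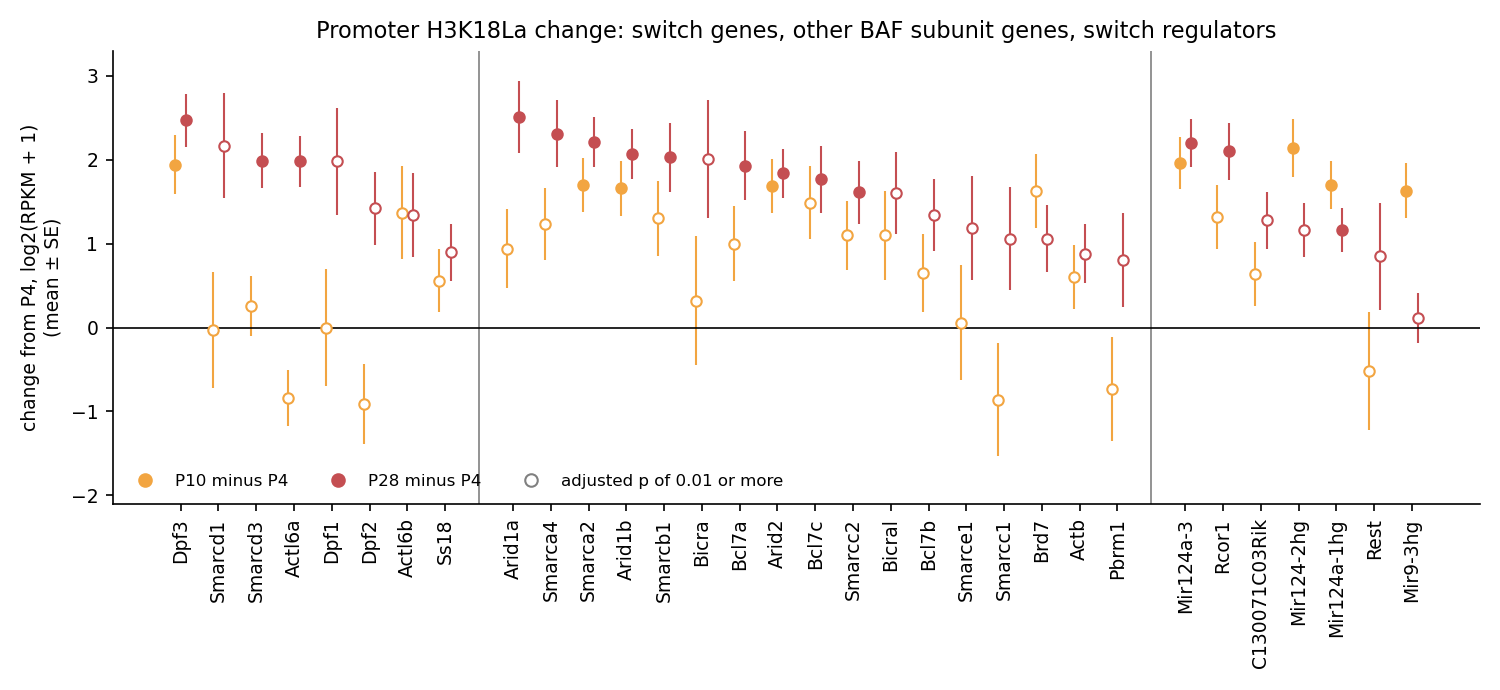
Change in promoter H3K18La from P4 to P10 and from P4 to P28, in log2(RPKM + 1) ± SE, for the 8 member promoters, 17 other BAF subunit genes and 7 regulators, each group ordered by its P28 change. Filled points passed an adjusted p of 0.01 by limma and open points did not. All P28 points lie above 0, and Mir9-3hg, Mir124-2hg, Mir124a-1hg, Brd7 and, by 0.03, Actl6b lie higher at P10 than at P28.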

How the data were processed

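H3K18La CUT&Tag was measured in 7 retina libraries. Per the study's methods, reads were aligned to GRCm38, MACS peaks with q under 1e-06 in at least 2 replicates were merged over ages and annotated with ChIPseeker 1.34.1 (promoter: 1000 bases before to 500 after a start site), and the submitters' processing notes name edgeR 3.40.2. The authors deposited RPKM per peak and library, scaled on 10000-base windows. RPKM times width and library size gave whole reads at 100.0% of peaks (tolerance 0.01). Here, ages were compared with limma 3.58.1 in R 4.3.3 on log2(RPKM + 1), on all 7 libraries with a variance trend, without batch, and Benjamini-Hochberg adjustment over all peaks; fold changes on this scale understate low peaks. Rate ratios use pooled reads with exact 95% intervals. The named promoter peak is the one nearest a start site, with ties (Dpf1, Dpf3 and Smarcd3) settled by the higher mean RPKM; other peaks are given by range, with called ones by position. Members, lists and tests were chosen with earlier results of these data known. Alternatives were another pseudocount (0.1), a signal filter, 2 scalings, voom, a replicate block, a threshold of 0.05 and leaving out each library. Sequences are from RefSeq (GRCm38.p6); exons were clipped with GENCODE M21. Columns of the authors' own comparisons were not used. The promoters most like Actl6b are not reported here.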

Additional observations from a re-analysis of the deposited data

How the results depend on the processing

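No member peak was called lower from P4 to P28 under any alternative. With a pseudocount of 0.1 the calls were 22 (P28 against P4), 14 (P10 against P4) and 2 (P28 against P10), the median change was 2.54, neuronal minus progenitor 0.79, and Actl6b minus Actl6a 1.04 to P28 and 4.36 to P10. With only the peaks at or above the median signal, the call between P10 and P28 was 1, the median change 1.95 and neuronal minus progenitor 0.46. Rescaling to reads in peaks gave 14 and 9 calls (2 of the 9 lower), 1 among the other BAF genes and regulators (lower, against 12), a median change of 0.80 (-0.29 over all peaks), neuronal minus progenitor 0.56, Actl6b minus Actl6a 0.30 to P28 and 3.04 to P10, and -0.44 for Ss18, the one promoter change that reversed among 125 alternatives. The 125 include the looser threshold and fits without a library of the age outside the contrast, which cannot reverse a change. Median centring, which moves all peaks by 0.523 between P4 and P28, gave 4 calls between P10 and P28, a median change of 1.07, 7 calls among the other BAF genes and regulators and 11 Dpf3 peaks before the third start site. Voom called 8 between P10 and P28, and an adjusted p under 0.05 gave 12 there and 40 for P10 against P4. Without Dpf3 the calls were 7 and 2.

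Without each library in turn, the calls ranged from 12 to 45 for P28 against P4, from 7 to 39 for P10 against P4, from 0 to 16 for P28 against P10 (16 without P10 replicate 2), and from 3 to 18 among the other BAF genes and regulators, with 5 without P4 replicate 1, 3 without P4 replicate 2 and 5 without any one P28 library. Neuronal minus progenitor ranged from 0.08 to 0.44, and the count of Dpf3 peaks before the third start site from 4 to 11. Neuronal minus progenitor was 0.49 without Smarcd1 and Smarcd3, -0.13 without Ss18, 0.46 without Actl6b, 0.09 without Dpf3, and -0.49 over all peaks of a gene. The cause of these moves was not tested. Deviations of same-numbered libraries had correlations of 0.039, 0 and 0.043. The P4 and P10 libraries had a median of 1 to 2 reads per peak, so counting noise could hide a pairing, and this check cannot decide it. With a replicate block the calls were 27, 21 and 0, and 7 among the other BAF genes and regulators. The alternatives without Dpf3 and those of the paralog differences, the Dpf3 counts and the other BAF genes were chosen after seeing the data. Depth limits P4 and P10: all libraries of the age held 3 reads or fewer at 38 of the 75 member peaks at P4 and 16 at P10, and at 0 at P28.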
